A study of Mus musculus with 6 samples.

Results

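Stem cell transcription factors are described here through 9 genes: Meis1, Hlf, Mecom, Gata2, Prdm16, Runx1, Gfi1, Gfi1b and Tal1. They were taken by name from the platform's annotation, with 1 probe set per gene, out of 19938 genes that have a probe set annotated with their symbol alone. All 9 were found. Mecom had 2 probe sets, of which the one with the higher mean over the 6 arrays was kept; each of the others had 1.

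The arrays carry RNA of mouse marrow cells in 3 groups of 2 biological replicates. C57BL/6 (B6) mice aged 8 weeks are named in every label, all with the genotype WT. Marrow of donors treated with fluorouracil was infected with a retrovirus and given to B6 recipients, and the cells studied were collected 14 days later by sorting for GFP, c-Kit and Sca-1 without lineage markers. This gate, called LSK, holds stem cells and early progenitors. In the vector group the virus carried GFP alone, and the labels name these cells HSCs. In the BCR-ABL group it carried the fusion kinase of chronic myeloid leukemia with GFP, and in the BCR-ABL-Blk group also Blk, a Src family kinase; the labels name both LSCs. All groups thus share the drug, the infection, GFP and the transplantation. Viral expression is limited to infected cells and their progeny. The sources used here give neither the promoter that drives it nor the number of mice per sample.

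Stem cell identity in marrow rests on a small set of DNA-binding proteins that bind many of the same control regions and each other's genes. Tal1, Gata2 and Runx1 form a core of this set together with Lmo2, Lyl1, Erg and Fli1. Meis1, Hlf, Mecom and Prdm16 are known from the most primitive cells, where they sustain self-renewal, and Gfi1 and Gfi1b are related repressors that restrain proliferation and steer the choice of lineage.

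All levels are log2 signals after quantile normalization, and all differences are differences of such levels. Probe sets differ in how brightly they bind, so differences and not levels are compared between genes. Deposited medians ran from 7.01 to 7.52 over the 6 arrays, unevenly within groups, which is why the arrays were normalized. The 2 vector arrays differed most from each other: their mean gap per gene was 0.212 over all genes and 0.351 over the 9 factors. The gap over the 9 factors was 0.0816 between the BCR-ABL arrays and 0.196 between the BCR-ABL-Blk arrays. Kit, the receptor used in the sort, read from 10.33 to 10.92 over the 6 arrays. Ly6a, which encodes Sca-1, had no such probe set and was not analysed here. With 2 arrays per group, p-values rest on a spread between replicates that is shared over the 3 groups. This spread is also moderated towards that of other genes, and the number of arrays limits the precision.

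BCR-ABL and vector cells were compared for the effect of the oncogene within the stem cell gate. Meis1, Hlf and Mecom read higher in both oncogene groups than in vector cells, with Mecom furthest apart, and the other 6 factors differed from vector by at most 0.33 in either group. None of the 9 passed in BCR-ABL against vector (limma, adjusted p below 0.05), where 0.145% of all genes did. At an unadjusted p below 0.05 there were 3 of 9, all higher, against 8.64% of all genes. Meis1 passed in BCR-ABL-Blk against vector, 1 of 9 against 0.14% of all genes, and again 3 of 9 had an unadjusted p below 0.05, against 9.42% of all genes. Both comparisons use the same 2 vector arrays, so they are not independent of each other.

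**Figure D1:**
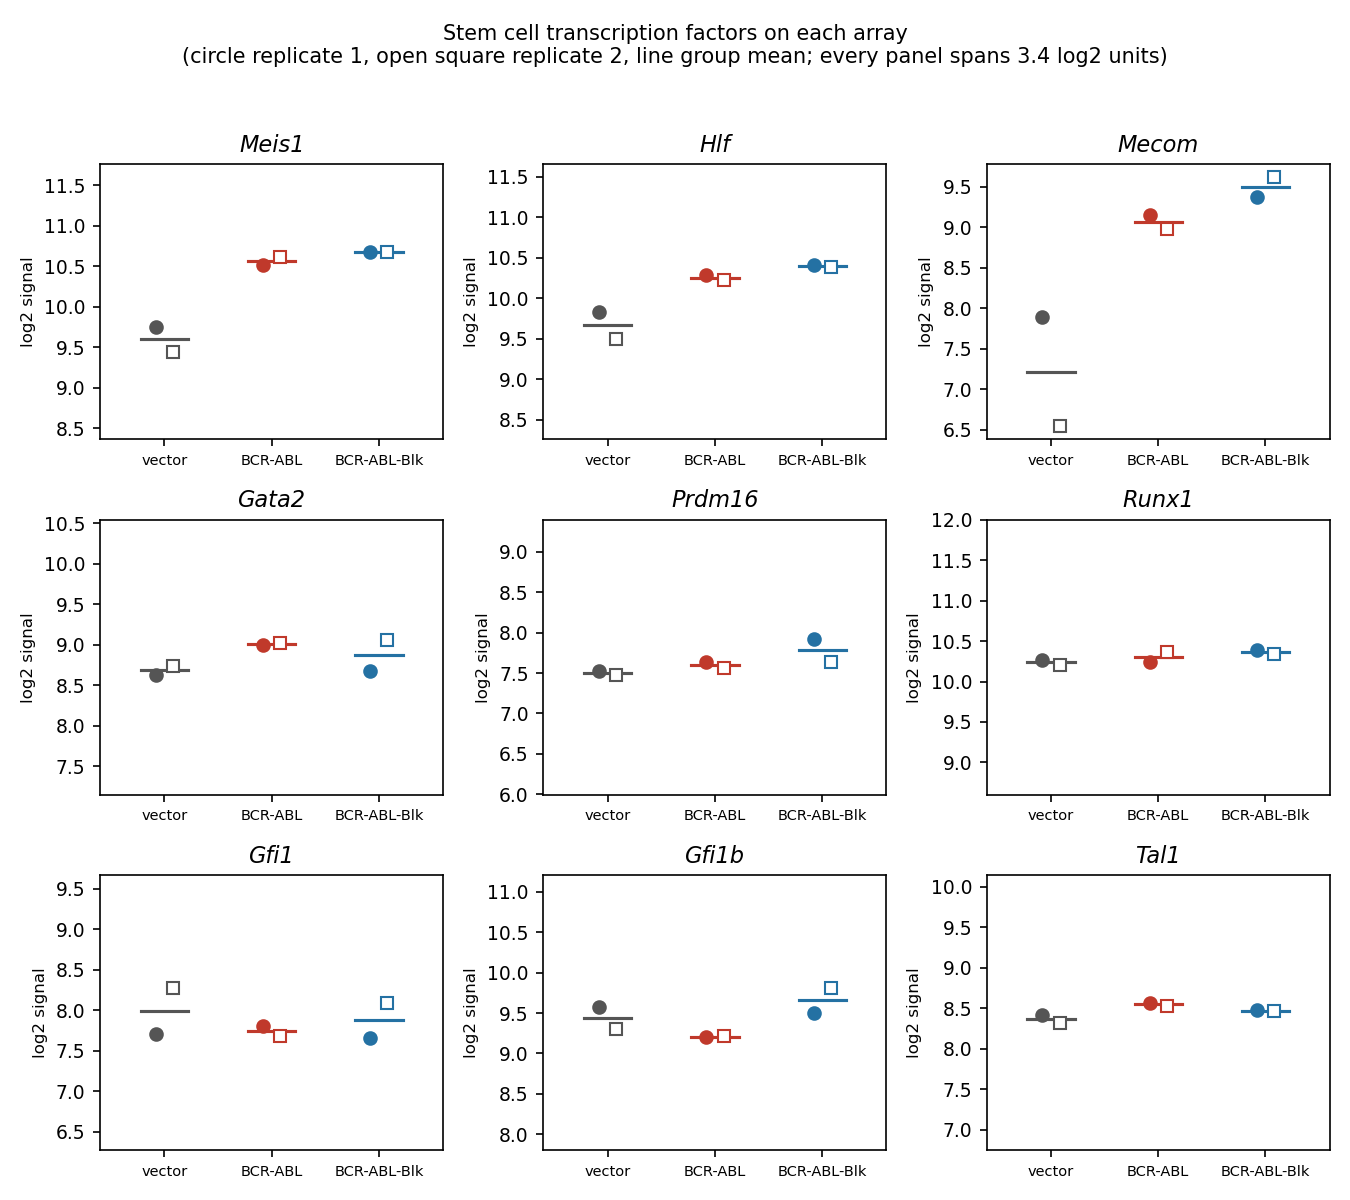
Log2 signal of each of the 9 factors on the 6 arrays, by group; circles are replicate 1, open squares replicate 2 and lines the group means of 2 arrays. Every panel spans the same number of log2 units, so that heights compare: Meis1, Hlf and Mecom stand lower on both vector arrays, and the vector arrays of Mecom lie 1.36 apart.

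Meis1 encodes a homeodomain protein that binds DNA with Hox proteins and is needed to keep stem cells quiescent. The vector arrays gave 9.75 and 9.44, those of BCR-ABL cells 10.51 and 10.61, and those with added Blk 10.68 each. Both vector arrays were low and the groups did not overlap. BCR-ABL cells were 0.96 above vector cells (SE 0.13, 95% interval 0.65 to 1.27, 1.95-fold), with a limma adjusted p of 0.0565. BCR-ABL-Blk cells were higher by 1.08 (SE 0.13, 95% interval 0.77 to 1.39, 2.12-fold), which passed at an adjusted p of 0.0492. The call is close to the threshold. Without vector replicate 1 the difference was 1.24, and without vector replicate 2 it was 0.93. Such fits lack the widest replicate gap, so their p-values are not compared. The call was lost without any of the other 4 arrays, though the difference stayed at 1.08 to 1.09. It was also lost with arrays centred on their medians, at a difference of 1.08 (adjusted p = 0.16). Between the oncogene groups Meis1 differed by 0.12 (95% interval −0.19 to 0.43, adjusted p = 0.999).

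Hlf encodes a basic leucine zipper factor whose expression marks primitive cells and fades as they mature. Its values were 9.83 and 9.50 in vector, 10.29 and 10.22 in BCR-ABL, and 10.41 and 10.38 in BCR-ABL-Blk cells. The order of the groups was that of Meis1, without overlap, and the vector arrays again stood apart by more than the others. Against vector the difference was 0.59 in BCR-ABL cells (SE 0.14, adjusted p = 0.21) and 0.73 in BCR-ABL-Blk cells (SE 0.14, adjusted p = 0.114), so neither passed. Without vector replicate 1 the differences were 0.75 and 0.89, and without vector replicate 2 they were 0.43 and 0.57. Added Blk gave a difference of 0.14 (95% interval −0.18 to 0.46).

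Mecom encodes Evi1 and its longer form, zinc finger proteins that sustain long-term stem cells and that leukemias of the myeloid line often activate. Its kept probe set gave 7.89 and 6.54 in vector, 9.15 and 8.98 in BCR-ABL, and 9.37 and 9.62 in BCR-ABL-Blk cells. All 4 oncogene arrays were higher than either vector array, and vector replicate 2 was the lowest by far. Against vector the difference was 1.85 in BCR-ABL cells (SE 0.38, 3.6-fold, adjusted p = 0.164) and 2.28 in BCR-ABL-Blk cells (SE 0.38, 4.86-fold, adjusted p = 0.0773). The size turned on the vector arrays: without replicate 1 the differences were 2.52 and 2.96, and without replicate 2 they were 1.17 and 1.60. How far its vector mean of 7.22 stands above background was not measured. Added Blk gave a difference of 0.43 (95% interval −0.46 to 1.33).

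The probe set of Mecom that was not kept is paired with other transcripts by the annotation. It read 7.62 and 7.31 in vector, 7.66 and 8.31 in BCR-ABL, and 8.37 and 8.14 in BCR-ABL-Blk cells. Here the BCR-ABL arrays were far apart and replicate 1 lay close to the vector arrays. The differences from vector were 0.52 and 0.79 (SE 0.26 each), in a fit over all 35557 probe sets. Both probe sets thus placed the groups in the same order, with smaller steps on the second. With the 2 averaged, Mecom differed from vector by 1.18 with BCR-ABL and by 1.54 with BCR-ABL-Blk.

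**Figure D2:**
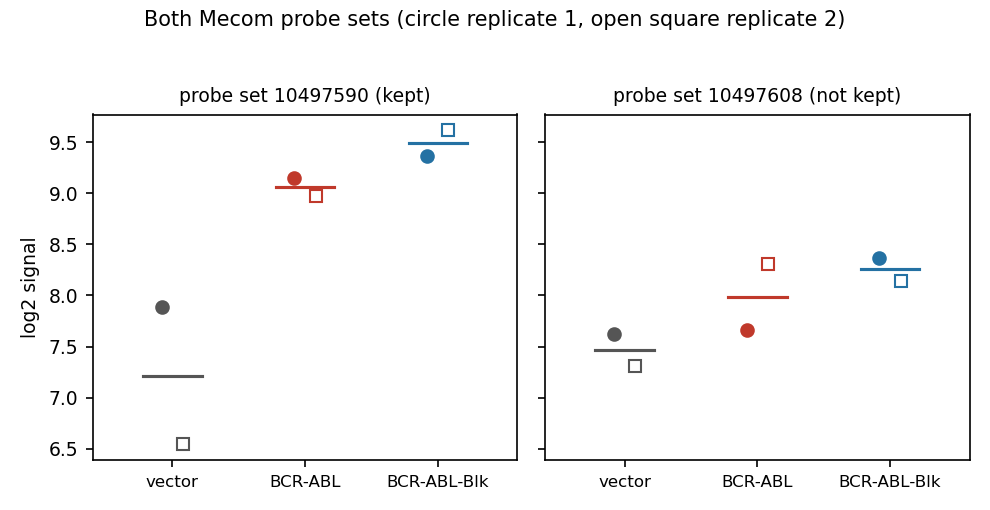
Log2 signal of the kept and the not kept Mecom probe set on the 6 arrays, on 1 axis; circles are replicate 1, open squares replicate 2 and lines group means. Both rank vector lowest and BCR-ABL-Blk highest, and the kept set spans 3.08 log2 units over the arrays.

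Because these 3 genes stood higher together, the 250 bases before their RefSeq starts are shown, with the table's build GRCm38.p6. Meis1 and Hlf lie on chromosome 11 and Mecom on chromosome 3, all on the minus strand, and each run is written 5′ to 3′ along its gene. Windows are chr11:19018970-19019219 for Meis1, chr11:90390918-90391167 for Hlf, and chr3:30509760-30510009 and chr3:30013205-30013454 for the far start of Mecom and for its near start, which lies downstream of it. Capitals mark matches, on either strand, to short binding letters of the factors or their partners: TGTGGT for RUNX factors, GGAAGT for the ETS family, CAGATG for the E-box of Tal1, TGACAG for MEIS proteins, AGATAA for GATA factors and AATCAC for GFI proteins. Only exact matches to these letters were marked, so shorter or variant sites remain in lower case. No motif overlapped another in the windows shown.
Meis1: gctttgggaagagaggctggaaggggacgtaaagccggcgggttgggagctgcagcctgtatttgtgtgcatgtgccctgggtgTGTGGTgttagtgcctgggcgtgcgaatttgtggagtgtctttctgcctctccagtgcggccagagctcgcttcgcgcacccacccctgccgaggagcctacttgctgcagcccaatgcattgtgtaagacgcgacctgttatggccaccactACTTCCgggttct
Hlf: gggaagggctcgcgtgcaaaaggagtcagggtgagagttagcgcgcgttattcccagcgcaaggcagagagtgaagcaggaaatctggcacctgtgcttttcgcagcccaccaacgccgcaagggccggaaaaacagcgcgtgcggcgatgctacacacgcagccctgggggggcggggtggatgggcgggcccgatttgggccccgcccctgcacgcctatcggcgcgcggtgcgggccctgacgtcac
Mecom far start: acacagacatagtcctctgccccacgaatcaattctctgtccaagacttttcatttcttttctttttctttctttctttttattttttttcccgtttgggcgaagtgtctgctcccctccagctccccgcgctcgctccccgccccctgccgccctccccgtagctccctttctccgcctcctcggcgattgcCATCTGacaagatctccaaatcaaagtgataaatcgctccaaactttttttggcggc
Mecom near start: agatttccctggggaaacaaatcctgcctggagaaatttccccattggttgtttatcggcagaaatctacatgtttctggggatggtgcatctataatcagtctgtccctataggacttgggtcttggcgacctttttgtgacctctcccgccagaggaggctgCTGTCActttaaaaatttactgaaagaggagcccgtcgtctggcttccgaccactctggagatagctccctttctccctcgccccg

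The Meis1 window held a RUNX match at −166 to −161 from the start and an ETS match on the other strand at −13 to −8. The far start of Mecom had an E-box match at −57 to −52, its near start a MEIS match at −86 to −81, and the Hlf window none of the 6. No motif was shared by all 3 genes. Among 32851 windows of the same length, 14% held the RUNX letters, 19.7% ETS, 14.4% the E-box, 15.9% MEIS, 9.99% GATA and 9.14% GFI. The 9 factors have 14 windows in the table, and each motif occurred in 1 of them, apart from GFI, which occurred in both windows of Runx1. The GATA match lay before Tal1. Such matches describe letters and do not show binding.

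Gata2, Tal1 and Runx1 belong to the core that stem cells share with early erythroid, megakaryocytic or mast cells. Gata2, a zinc finger factor needed for stem cell survival, read 8.63 and 8.74 in vector, 9.0 and 9.02 in BCR-ABL, and 8.68 and 9.06 in BCR-ABL-Blk cells. The BCR-ABL arrays were above both vector arrays, but those with added Blk overlapped them. BCR-ABL cells differed from vector by 0.33 (SE 0.16, adjusted p = 0.642), and BCR-ABL-Blk cells by 0.18 (SE 0.16, adjusted p = 0.823). Without BCR-ABL-Blk replicate 2 the latter was −0.01.

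Tal1, a helix-loop-helix factor required for blood formation, read 8.41 and 8.32 in vector, 8.57 and 8.53 in BCR-ABL, and 8.48 and 8.46 in BCR-ABL-Blk cells. The groups did not overlap, but all 6 values lay within 0.25. The differences from vector of 0.19 (95% interval −0.11 to 0.49) and 0.11 (95% interval −0.20 to 0.41) did not pass. Runx1, the DNA-binding partner of Cbfb and a frequent target of leukemia translocations, varied least: 10.27 and 10.21 in vector, 10.24 and 10.37 in BCR-ABL, and 10.39 and 10.34 in BCR-ABL-Blk cells. Its range over the arrays was 0.18. The intervals of its differences from vector, −0.19 to 0.32 and −0.13 to 0.38, hold no change of 1.5-fold.

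Prdm16, a relative of Mecom that maintains stem cells, read 7.53 and 7.47 in vector, 7.64 and 7.56 in BCR-ABL, and 7.92 and 7.64 in BCR-ABL-Blk cells. Both oncogene groups lay just above vector, and BCR-ABL-Blk replicate 1 was the highest. The differences from vector were 0.10 (SE 0.14, adjusted p = 0.895), which turned to −0.05 without normalization between arrays, and 0.28 (SE 0.14, adjusted p = 0.593). The latter was 0.14 without BCR-ABL-Blk replicate 1 and 0.42 without replicate 2, and the former ran from 0.06 to 0.14 with an array left out. Whether it differed from Mecom in this was not tested.

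Gfi1 and Gfi1b encode repressors that share a DNA motif and recruit the demethylase Kdm1a. Gfi1, known mainly from stem cells and neutrophil precursors, read 7.70 and 8.28 in vector, 7.80 and 7.68 in BCR-ABL, and 7.66 and 8.09 in BCR-ABL-Blk cells. The groups overlapped and the vector arrays were 0.58 apart. Its differences from vector of −0.25 (SE 0.22) and −0.11 (SE 0.22) did not pass (adjusted p = 0.823 and 0.935). Without vector replicate 2 they were 0.04 and 0.17.

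Gfi1b, known mainly from erythroid and megakaryocytic cells and from quiescent stem cells, read 9.58 and 9.30 in vector, 9.20 and 9.21 in BCR-ABL, and 9.50 and 9.81 in BCR-ABL-Blk cells. BCR-ABL cells were lowest, both arrays of BCR-ABL-Blk cells were above them, and the vector arrays lay between or among the latter. Against vector, BCR-ABL cells were at −0.24 (SE 0.17, adjusted p = 0.754) and BCR-ABL-Blk cells at 0.21 (SE 0.17, adjusted p = 0.787). With an array left out these ran from −0.38 to −0.10, the ends without vector replicates 2 and 1, and from 0.05 to 0.37, the ends without BCR-ABL-Blk replicates 2 and 1. Without vector replicate 2 the second was 0.07, and without vector replicate 1 it was 0.35.

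The 2 oncogene groups were set against each other for the effect of added Blk. No gene of the array passed (limma), which is 0% of 19938, and so none of the 9. At an unadjusted p below 0.05 there was 1 of the 9, Gfi1b, against 3.96% of all genes. Gfi1b was higher with Blk by 0.45 (SE 0.17, 95% interval 0.06 to 0.84, 1.37-fold, limma adjusted p = 0.999) and ranked 420 by p among all genes. The difference was 0.29 without BCR-ABL-Blk replicate 2 and 0.61 without replicate 1. For the other 8 factors the estimates ran from −0.14 for Gata2 to 0.43 for Mecom. Their signs are not settled for Gata2 and Tal1, which turned to 0.12 and 0.21 without normalization between arrays, for Runx1, at −0.03 with arrays centred on their medians, or for Gfi1.

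**Figure D3:**
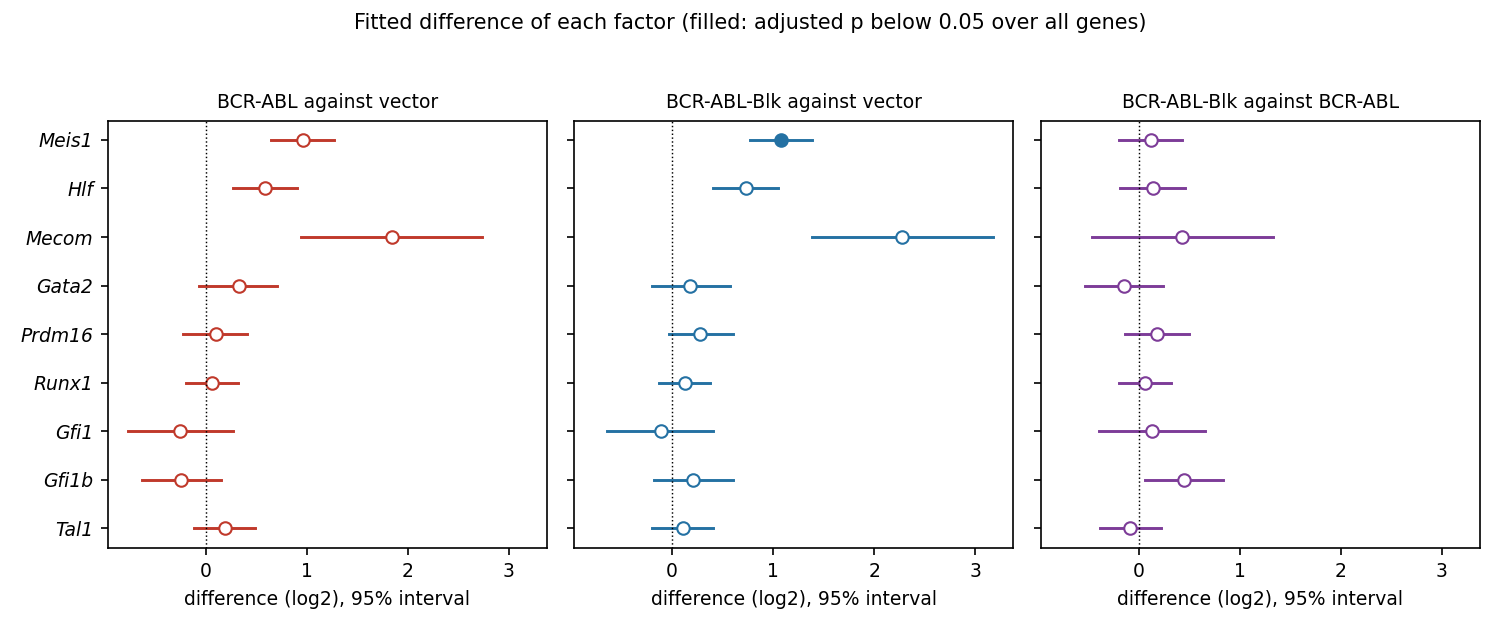
Fitted difference of each factor in the 3 comparisons on the log2 scale, with 95% intervals from limma over 2 arrays per group; filled points passed an adjusted p of 0.05 over all genes. Meis1 in BCR-ABL-Blk against vector is filled, and the intervals of Meis1, Hlf and Mecom against vector lie above 0.

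In BCR-ABL against vector, both arrays of the first group were above both of the second for 6 of the 9 factors, against 22.1% of all genes, and below for 1 (Gfi1b), against 14.9%. In BCR-ABL-Blk against vector this held for 6 above, against 19.7%, and 0 below, against 17.5%. Between the oncogene groups 4 lay above, against 14%, and 1 (Tal1) below, against 20%. The median difference of the 9 factors was 0.19, 0.21 and 0.13 in these comparisons, beside 0.02, 0.00 and −0.01 over all genes. Without normalization between arrays the median gene itself stood at −0.11, 0.15 and 0.25, and that of the 9 factors at 0.06, 0.38 and 0.35.

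With the oncogene groups pooled against vector, an addition made after the values were seen, Meis1 was higher by 1.02 (SE 0.12, 2.03-fold, adjusted p = 0.0244), in 4 of 4 arrays. It was the 1 of 9 that passed, against 0.502% of all genes, and 3 of 9 had an unadjusted p below 0.05, against 10.5%. Mecom was at 2.06 (SE 0.33, adjusted p = 0.0531) and Hlf at 0.66 (SE 0.12, adjusted p = 0.0735). Without vector replicate 1 the Meis1 difference was 1.18, and without vector replicate 2 it was 0.87. The Meis1 call was lost without any 1 of the oncogene arrays and with arrays centred on their medians (limma adjusted p = 0.0807), with differences from 1.00 to 1.07.

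Genes of proteins that bind with the 9 factors were examined next. Of 25 listed partners and cofactors 24 were measured, and 0 passed in any of the 3 comparisons (limma). In BCR-ABL against vector 1 was higher and 3 lower at an unadjusted p below 0.05, 4 of 24 against 8.64% of all genes. These were the deacetylase Hdac2 (0.19), Ldb1, the bridging protein of the Tal1 complex (−0.42), and the E proteins Tcf3 (−0.54) and Tcf4 (−0.37), which pair with Tal1. In BCR-ABL-Blk against vector, where 4 of 24 stand against 9.42%, 3 were higher, namely Hdac2 (0.18), the ETS factor Fli1 (0.29) and the Meis partner Pbx3 (0.90), and Tcf4 (−0.35) was lower. Pbx3 read 7.72 and 8.95 on the BCR-ABL-Blk arrays, so its value rests on replicate 2. No partner had such a p between the oncogene groups, against 3.96% of all genes.

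In BCR-ABL against vector the rest of the core set differed by at most 0.39. Lmo2, the LIM protein that joins Tal1 to Gata factors, was at −0.12, Lyl1, a relative of Tal1, at −0.39, and the ETS factor Erg at 0.19. Cbfb was at 0.09, the Meis1 partner Hoxa9 at 0.18 and Kdm1a at 0.08. With added Blk the differences from vector were 0.05 for Lmo2, −0.20 for Lyl1, 0.30 for Erg, 0.15 for Cbfb, 0.14 for Hoxa9 and 0.07 for Kdm1a. None of these passed, with limma adjusted p from 0.588 to 0.922.

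Genes related in sequence to the 9 factors did not pass either. Of 15 listed paralogs 13 were measured, with 0 called, and 1, 3 and 2 had an unadjusted p below 0.05 in the 3 comparisons, against 8.64%, 9.42% and 3.96% of all genes. In BCR-ABL against vector this was Tal2, a relative of Tal1 (0.32). In BCR-ABL-Blk against vector they were Gata3 (0.39), Tef, a relative of Hlf (0.35), and Meis2 (0.25). Between the oncogene groups they were Nfil3, which competes with Hlf for similar sites (−0.37), and Meis2 (0.24). Gata1, which follows Gata2 in erythroid cells, was at −0.27 and −0.22 in the comparisons with vector (adjusted p = 0.853 and 0.893).

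Among 29 other transcription factors of stem and progenitor cells, all measured, 0 passed in the 3 comparisons, and 6, 9 and 3 had an unadjusted p below 0.05, against 8.64%, 9.42% and 3.96% of all genes. These were 3 higher and 3 lower in BCR-ABL against vector, and 5 higher and 4 lower in BCR-ABL-Blk against vector. Between the oncogene groups 3 were higher with Blk. Higher in both oncogene groups were Mycn (0.85 and 1.13), Hmga2, a chromatin protein of self-renewing cells (0.70 and 0.84), and the Ikaros relative Ikzf2 (0.35 and 0.66). Satb1, a chromatin organizer of lymphoid progenitors, was lower (−0.83 and −0.77), as was the B cell factor Ebf1 (−2.64 and −2.91, SE 0.73 each). The lymphoid factor Lef1 was at −1.39 and −1.16 (SE 0.51 each), with a limma unadjusted p of 0.0281 and 0.0546. Its vector arrays were far apart, at 9.53 and 7.64, and the others ran from 7.17 to 7.56. Satb1 fell with the oncogene groups pooled (−0.80, adjusted p = 0.0481). In the planned comparisons Mycn came nearest to the threshold, with readings of 7.85 and 8.20 in vector and 9.19 and 9.12 in BCR-ABL-Blk cells (adjusted p = 0.0715). Myb, needed for progenitor growth, was at −0.15 and −0.19, and Spi1, the master factor of myeloid cells, at −0.64 and −0.68. Both had an unadjusted p below 0.05 (limma) in BCR-ABL-Blk against vector only.

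Of 20 listed known targets of the 9 factors 15 were measured, of which 10 were below their vector level with BCR-ABL alone and 11 with added Blk. The median was −0.27 and −0.26, beside 0.02 and 0.00 over all genes; 0 passed in any of the 3 comparisons, and 5, 7 and 1 had an unadjusted p below 0.05, against 8.64%, 9.42% and 3.96% of all genes. Csf1r, a Runx1 target of monocytes, was at −1.05 and −0.96 (SE 0.26 each). Id2, which Gfi1 represses, read 9.11 and 9.13 in vector, 8.69 and 8.67 in BCR-ABL, and 8.55 and 8.18 in BCR-ABL-Blk cells, without overlap. Its differences from vector were −0.44 and −0.76 (adjusted p = 0.49 and 0.156). Cd34, a surface protein of progenitors, was at 0.20 and 0.36. Between the oncogene groups the 1 target with an unadjusted p below 0.05 was Hif1a, which encodes an oxygen-sensitive factor (−0.42, adjusted p = 0.999).

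**Figure D4:**
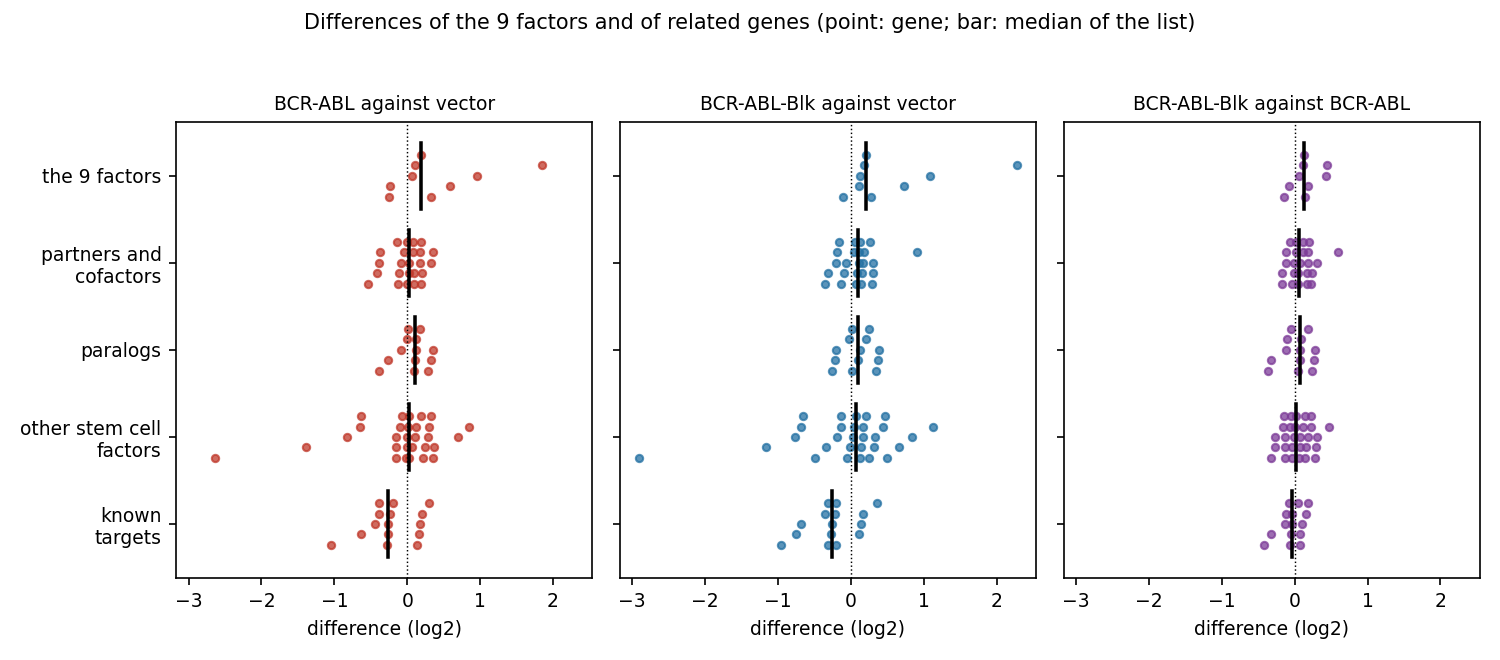
Differences on the log2 scale of the 9 factors and of 4 related lists in the 3 comparisons; each point is a gene and each bar the median of its list. The medians of the known targets lie at −0.27 and −0.26 against vector, and those of the 9 factors at 0.19 and 0.21. The target list includes Id2, which Gfi1 represses, and genes of the marker lists, so these signs are not compared.

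Marker genes of other cells also stood at unlike levels in the groups. Of 10 monocyte and dendritic genes all 10 were below 0 in both comparisons with vector, where Ccr2 fell with BCR-ABL-Blk (−1.38, adjusted p = 0.0492); the list's median level was 9.23 and 9.65 on the vector arrays and from 7.73 to 8.29 on the others. All 9 measured B cell genes were below 0 too. Their median level was 10.75 and 8.94 on the vector arrays and from 7.04 to 7.95 on the others, so the vector arrays also differed from each other. Genes of megakaryocytes, cells that use Gata2, Gfi1b, Tal1 and Runx1, had median levels of 7.92 and 7.74 in vector and from 8.37 to 8.50 in the oncogene groups. In both comparisons with vector 8 of 8 measured genes were above 0. At an unadjusted p below 0.05 there were 10 and 10 of the monocyte, 9 and 8 of the B cell and 6 and 4 of the megakaryocyte genes in the comparisons with vector, against 8.64% and 9.42% of all genes. The part of these cells in the results for Meis1, Hlf and Mecom was not tested. In bulk RNA a change in the share of cells with a transcript and a change per cell cannot be told apart.

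Stem cell markers that were not among the 9 factors had levels of 7.69 and 7.80 in vector and from 8.58 to 8.97 in the oncogene groups (median of 8 of 10 genes, of which Kit, Cd34 and Flt3 are also among the known targets). Gene by gene the shift was smaller: the median difference was 0.24 with BCR-ABL and 0.34 with BCR-ABL-Blk, with 6 above 0 and 2 below in each. Slamf1, Procr and Ctnnal1, which mark long-term stem cells, differed from vector by 1.21, 0.69 and 0.95 in BCR-ABL cells, with adjusted p from 0.121 to 0.364. The 2 below 0 were Kit (−0.39 and −0.28), the receptor used in the sort, and Flt3 (−0.20 and −0.32), a receptor of progenitors. Erythroid genes, which Tal1 and Gfi1b also serve, had a median level of 9.76 and 8.77 in vector, 9.0 and 8.79 in BCR-ABL, and 8.41 and 7.83 in BCR-ABL-Blk cells. Between the oncogene groups all 8 measured erythroid genes were lower with Blk (median −0.40, 0 called), where 10835 of 19938 genes were below 0. Of 8 measured megakaryocyte genes 6 were lower (median −0.13, 0 called). Neutrophil granule genes had median levels of 10.77 and 11.77 in vector, 10.55 and 10.54 in BCR-ABL, and 10.08 and 9.93 in BCR-ABL-Blk cells. Genes of mast cells, basophils and eosinophils, in which Gata2 acts, had median levels of 7.54 and 7.49 in vector and 9.59 and 9.61 in BCR-ABL cells. These medians were uneven in BCR-ABL-Blk cells, at 9.89 and 8.41. The part of these cells in the Gata2 values was not tested. Gene by gene their median difference from vector was 0.85 with BCR-ABL and 0.70 with BCR-ABL-Blk. Gzmb rose among them in both comparisons with vector (3.25 and 2.50, adjusted p = 0.0187 and 0.0492), while Prg2 (−0.98 and −1.11) and Ms4a2 (−0.30 and −0.44) were lower and did not pass. The median level of the T and NK cell list ran from 6.40 to 7.28 over the arrays. Against vector 4 of its 8 measured genes were above 0 with BCR-ABL and 3 with BCR-ABL-Blk. Klrd1 fell in both comparisons (−1.29 and −1.03). Lat was at 1.34 and 1.09 (adjusted p = 0.0504 and 0.0715) and rose with the oncogene groups pooled (1.22, adjusted p = 0.0316), and Thy1 was at 1.21 and 1.46.

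**Figure D5:**
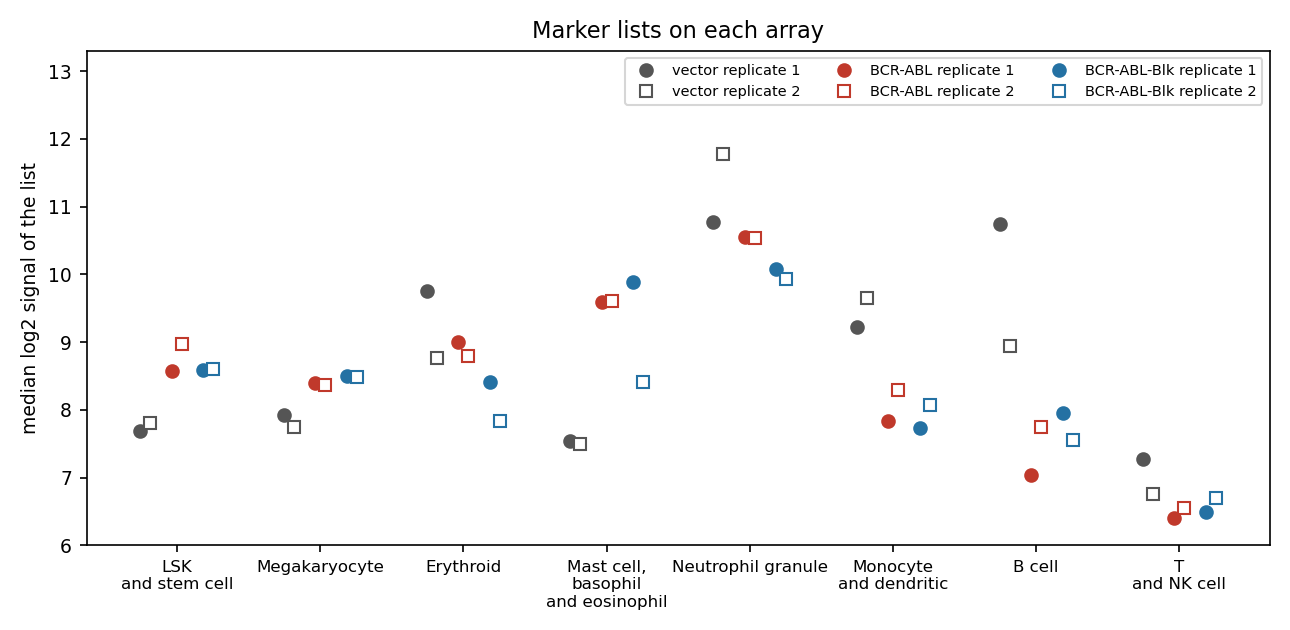
Median log2 signal of 8 marker lists on each of the 6 arrays; filled circles are replicate 1 and open squares replicate 2, coloured by group. The B cell list reads 10.75 and 8.94 on the vector arrays and at most 7.95 on the others, and the stem cell list at most 7.80 on the vector arrays and at least 8.58 on the others.

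The genes whose levels followed those of the factors most closely over the 6 arrays were sought among 8747 genes, those that varied at least as much over the arrays as the median gene; the other factors were among the candidates where they did. Map7, Zfp933 and Xpo7 came nearest to Meis1 (Pearson r from 0.995 to 0.998), Dst, Slfn3 and Tox to Hlf (0.996 to 0.999), and Stat4, St3gal1 and Utp14a to Mecom (0.996 to 0.997). For Gata2 they were Fgf17, Slc35g1 and Scn10a (0.985 to 0.989), for Tal1 Cox18, Tars and Fam3c (0.991 to 0.992), and for Runx1 Epha1, Zfp931 and Nhlrc3 (0.973 to 0.977). Creb3l1, Dctd and Bgn came nearest to Prdm16 (0.976 to 0.996), Shisa6, Matk and Neu1 to Gfi1 (0.98 to 0.988), and Hsdl1, Lrrc75a and Plekho2 to Gfi1b (0.976 to 0.987). With 6 arrays in 3 groups such values mostly follow the group means and the arrays, and they are given as a description.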

How the data were processed

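Expression was measured on 1 Affymetrix whole-transcript array per sample, 6 in all, grouped by sample title. The deposited log2 values for 35557 probe sets were made by the authors with Affymetrix Expression Console 1.1 and RMA, per the submitters' processing notes; the sources used here give no options or build. Since medians differed between arrays, values were quantile normalized (limma 3.58.1, R 4.3.3). The platform annotation gave 21789 probe sets 1 symbol, 1621 several and 12147 none; those with 1 symbol were used, and per gene the set with the highest mean, which left 19938 genes without a filter on level. All 6 arrays entered one lmFit model, moderated by eBayes with a trend on intensity (3 residual and 4.4 prior degrees of freedom); tests were two-sided, Benjamini-Hochberg adjusted over all genes and called below 0.05. The fit was tested on simulated arrays with 200 of 19938 genes changed in BCR-ABL against vector. It recovered 22.2% of 1.5-fold, 62.4% of 2-fold and 93% of 4-fold changes, and 3.85% of its calls were false. The factors and gene lists were chosen with earlier results of these data known, so no list was tested. All 9 factors are named. Of each list, the genes named are those always named by rule, those called in the planned comparisons, and up to 4 with the smallest p. With the oncogene groups pooled, 1 of 8 megakaryocyte, 3 of 10 monocyte and dendritic and 1 of 9 B cell genes also passed. The share over all genes was 0.502%, and these genes are not named here. Ldb1, Pbx3, Tef, Ebf1, Lef1, Kit, Flt3 and Ms4a2 were named after their values were seen. Other marker lists appear as levels. Promoter windows are RefSeq's; figures were drawn with matplotlib 3.10.9. Alternatives were other scalings, variance models, probe set rules, a filter, the replicate number as a block, and each array left out, where a lone array is assumed to vary like the other groups.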

Additional observations from a re-analysis of the deposited data

How the results depend on the processing

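Of the 27 differences of the 9 factors in the 3 planned comparisons 8 turned sign under at least 1 of 15 alternatives; none of those had passed. In BCR-ABL against vector, where none of the 9 was called, 2 were called without normalization between arrays, 1 with robust eBayes, 1 with genes below the median level left out, and from 0 to 3 with an array left out, the highest without vector replicate 1. In BCR-ABL-Blk against vector, where 1 was called, 3 were called without normalization and 0 with arrays centred on their medians, without an intensity trend, with array weights, or with only the 2 groups compared; leaving out an array gave 0 to 3. The fit without normalization had infinite prior degrees of freedom, so its p-values are not comparable. There the median of the factors was 0.38 in BCR-ABL-Blk against vector and 0.35 against BCR-ABL, Prdm16 was at −0.05 in BCR-ABL and Gfi1 at 0.05 in BCR-ABL-Blk cells against vector, and Gata2 and Tal1 at 0.12 and 0.21 between the oncogene groups. With centred arrays Runx1 was at −0.03 between them. With an array left out the median against vector ran from 0.15 to 0.37 with added Blk. Gfi1 then ran from −0.54 to 0.04 in BCR-ABL and from −0.40 to 0.17 in BCR-ABL-Blk cells against vector, and from −0.08 to 0.35 between the oncogene groups. Gata2 ran from −0.01 to 0.37 in BCR-ABL-Blk against vector and from −0.33 to 0.04 between them. The causes were not tested.

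The count of all genes called depended on the arrays and the variance model. In BCR-ABL against vector it was 29, and 401 without normalization, 15 without trend, 69 with robust eBayes, 53 with the filter, and 1 to 507 with an array left out. In BCR-ABL-Blk against vector it was 28, and 731, 4, 58 and 71 in the same order, 14 with array weights, 4 with only the 2 groups, and 4 to 554 with an array left out. Between the oncogene groups it was 0, and 79 without normalization and 2 without BCR-ABL-Blk replicate 1. Replicate numbers showed no shared shift after quantile normalization: deviations of same-numbered arrays correlated at −0.0618, 0.0841 and 0.0334. The labels do not say whether same-numbered samples shared a batch, and these correlations cannot settle it. With the replicate number as a block 0 of the 9 factors were called in BCR-ABL-Blk against vector, where Meis1 had an adjusted p of 0.0611, and 23 of all genes. The 2 arrays per group limit the precision, with a median SE over genes of 0.129 in BCR-ABL against vector. Signal over background was not given.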
